A study of Bos taurus with 12 samples.

Results

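HAS2, PTX3, TNFAIP6 and CD44 make, cross-link or bind the hyaluronan matrix that forms around the bovine oocyte as its cumulus cells expand. They were examined here in oocytes freed of cumulus cells. They were represented by all 7 probe sets whose array annotation gives 1 of these 4 symbols alone: 3 for HAS2, 2 for TNFAIP6 and 1 each for PTX3 and CD44. The array holds 24016 probe sets without its controls, of which 13292 carry a single symbol and stand for 9155 genes. All 7 probe sets were among the 14409 kept for testing, whose mean over the 12 arrays was above 5.57 log2 units. PTX3, both TNFAIP6 probe sets and CD44 had means of 4.23 to 5.55 over the 9 arrays with high oocyte transcripts. These means lay below 5.57, a limit that was not recomputed over the 9. CD44 was low in all 3 pools of immature prepubertal oocytes, against all 9 other pools. The share of probe sets with this pattern was not counted. Against adult GV pools alone, 1.88% of kept probe sets were apart in this direction, and against prepubertal MII pools alone 3.66%. PTX3 and 1 of the 2 TNFAIP6 probe sets were at their highest on 2 arrays from prepubertal donors. On these, oocyte transcripts were low and most of the measured cumulus and granulosa markers high. The other TNFAIP6 probe set was highest on an adult GV array, where oocyte transcripts were also low. On the 9 arrays with high oocyte transcripts, PTX3 was higher in every mature pool than in every immature pool, as 3.82% of kept probe sets were. Its signal was dim in the immature pools. No difference of any member passed the threshold after adjustment over all probe sets.

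Hyaluronan is a long sugar polymer that hyaluronan synthase 2, encoded by HAS2, extrudes through the plasma membrane of cumulus cells after the ovulatory signal. In mice, the proteins encoded by TNFAIP6 and PTX3 organise the strands into a stable coat, and loss of either gene disturbs the expanded cumulus. TNFAIP6 moves heavy chains of inter-alpha-trypsin inhibitor from the serum onto hyaluronan, and PTX3 is a multimeric pentraxin that binds these chains. CD44 is a cell surface receptor for hyaluronan, linked to the cytoskeleton by ezrin, radixin and moesin. The oocyte factors GDF9 and BMP15 act on cumulus cells to allow expansion.

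The samples were 12 pools of 50 oocytes of Japanese Black cattle, 3 pools in each of 4 groups, each on 1 array. The groups were adult oocytes at metaphase II (MII), adult oocytes at the germinal vesicle stage (GV, before meiosis resumes), prepubertal oocytes at MII and prepubertal oocytes at GV. Adult ovaries came from cows at an abattoir, with no age given, and prepubertal ovaries from heifers aged 9 to 12 months on farms, where they were removed with a spay device. All oocytes came from follicles of 2 to 8 mm. GV oocytes were taken directly after aspiration, and MII oocytes after 20 to 22 h of culture in serum-supplemented medium and selection for a polar body. In all 4 groups the cumulus cells were stripped with 0.1% (w/v) hyaluronidase, the enzyme that digests the product of HAS2. Donor age thus came with the source of the ovaries, and stage with the culture, so that these cannot be told apart. The labels call the pools biological replicates and name no animal or day, so p-values measure the spread between these pools, which may be partly technical.

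The values are log2 signals as the authors deposited them, and 1 unit is a doubling of signal. Array medians ran from 5.64 to 8.30 log2 units, and no detection calls were used here, so low signals cannot be split into present and absent. On 3 arrays the oocyte gene BMP15 was low: 7.08 on the first prepubertal GV array (PP1 GV), 6.55 on the first prepubertal MII array (PP1 MII) and 6.47 on the first adult GV array (A1 GV), against 14.21 to 15.10 on the other 9. These 3 arrays were set apart by that gene, and the other 8 oocyte markers measured also lay below the range of the other 9 arrays on each of the 3. Of 17 cumulus and granulosa markers, 12 lay above that range on PP1 GV, 11 on PP1 MII and 11 on A1 GV. Of all kept probe sets, 24.8%, 18.6% and 32.7% did. Only 9 of the 17 markers were among the kept probe sets, so these shares do not compare like with like. The granulosa gene INHA, the inhibin alpha subunit, was at 12.37, 11.91 and 7.99 on these 3 arrays, against 0.66 to 6.44 on the other 9. These are deposited values. On A1 GV, INHA lay below the array median of 8.30, whereas on the second prepubertal MII array, at 6.44, it lay above the median of 5.93. The summed signal of the 17 markers was 209362 on PP1 GV, 336699 on PP1 MII and 9878 on A1 GV, against 4947 to 23188 on the other 9. PP1 GV and PP1 MII were therefore far above the other 9 arrays in this sum, whereas A1 GV lay within their range. A linear sum is weighted to the brightest genes. On PP1 GV and PP1 MII these were VCAN (16.08 and 17.10), SERPINE2 (15.95 and 16.54) and GJA1 (15.91 and 16.19). Not all of the 17 were high there: AMH (4.81 and 6.62) and FOXL2 (4.46 and 1.81) lay within the range of the 9. Over all kept probe sets, the highest Spearman correlation of A1 GV with any other array was 0.14, against 0.55 to 0.85 for each of the other 11 arrays. Results below that rest on these 3 arrays are given with and without them. The fit over 9 arrays has 3 adult MII, 2 adult GV, 2 prepubertal MII and 2 prepubertal GV arrays.

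HAS2, the synthase itself, did not give a single picture across its 3 probe sets. The probe set with the highest mean, Bt.12927.1.S1_at, was at 9.57, 8.85 and 9.03 in adult MII pools, 5.41, 8.06 and 7.36 in adult GV pools, 11.04, 8.67 and 8.09 in prepubertal MII pools and 10.50, 8.28 and 9.04 in prepubertal GV pools. The highest values belonged to PP1 MII and PP1 GV and the lowest to A1 GV. In adult oocytes all MII pools lay above all GV pools, a pattern held in this direction by 8.11% of all kept probe sets. In limma, the fit across all probe sets, this difference was 2.20 (SE 1.20, 95% interval -0.30 to 4.70, adjusted p = 0.642), and over the 9 arrays it was 1.43 (SE 1.07, adjusted p = 0.681). The separation was also present after each array was centred on its median, but not for percentiles within the array. Adult GV pools lay below prepubertal GV pools by this probe set, as 3.80% of probe sets did, with a fitted difference of -2.33 (SE 1.20, limma adjusted p = 1), and of -0.94 (SE 1.18) without the 3 arrays. That separation was not present after centring. The MII difference between ages was -0.12 (SE 1.20), and the maturation difference in prepubertal oocytes was -0.01 (SE 1.20), both far inside the spread. Over the 9 arrays the MII means were 9.15 in adult and 8.38 in prepubertal pools, the other direction, with overlap after centring. The prepubertal GV mean was then 8.66. In a pool, fewer cells of a type and less RNA per cell cannot be told apart, and this holds for every result here.

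The other HAS2 probe sets moved differently. Bt.20289.1.S1_at was at 8.72, 8.73 and 2.87 in adult MII pools, 9.34, 8.30 and 8.70 in adult GV pools, 9.57, 8.87 and 9.24 in prepubertal MII pools and 10.17, 7.98 and 7.69 in prepubertal GV pools. The third adult MII array was far below the other 11, which ran from 7.69 to 10.17. With that array the MII difference between ages was -2.45 (SE 1.43), with all 3 adult pools below all 3 prepubertal pools, as 4.78% of probe sets were, and without it -0.50 (SE 1.15). On the 9 arrays the prepubertal MII pools lay above the prepubertal GV pools on all 3 scales, as 19.4% of probe sets did on the deposited scale, with a HAS2 difference of 1.22 (SE 1.75). Bt.12927.2.S1_at ran from 2.36 to 7.82 with overlap of the groups in every comparison, and its fitted differences lay between -2.22 and 0.78. The correlation between the HAS2 probe sets over the 12 arrays was -0.37 for Bt.12927.1.S1_at with Bt.12927.2.S1_at, 0.01 for Bt.12927.1.S1_at with Bt.20289.1.S1_at, and 0.35 for the remaining pair. The points share arrays, donors and amplification, and the 3 probe sets do not report 1 common HAS2 pattern.

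**Figure D1:**
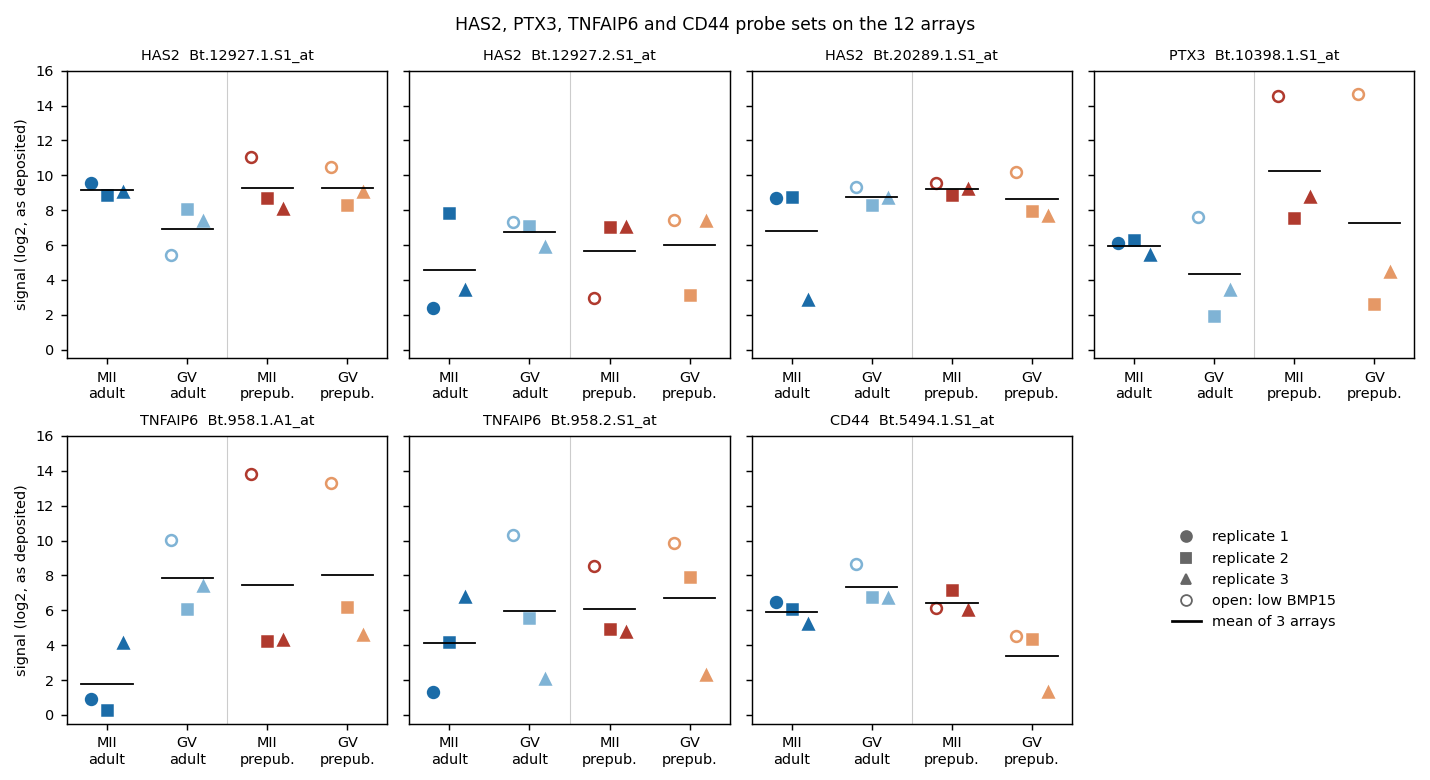
Deposited log2 signal of the 7 probe sets on the 12 arrays, by group, with 1 panel per probe set. Symbols mark the replicate, open symbols the 3 arrays with low BMP15, and lines the mean of 3 arrays. The open symbols of PTX3 and of TNFAIP6 Bt.958.1.A1_at in prepubertal oocytes stand above 13, and the 3 prepubertal GV values of CD44 lie below all others.

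PTX3, the pentraxin of the matrix, had its largest values on the 2 prepubertal arrays with low BMP15. It was at 6.14, 6.28 and 5.40 in adult MII pools, 7.61, 1.92 and 3.42 in adult GV pools, 14.53, 7.54 and 8.74 in prepubertal MII pools and 14.66, 2.62 and 4.46 in prepubertal GV pools. PP1 GV and PP1 MII gave nearly the same value, far above every other array. By mean, the order was prepubertal MII at 10.27 ± 3.74, prepubertal GV at 7.24 ± 6.48, adult MII at 5.94 ± 0.47 and adult GV at 4.32 ± 2.95 (SD, n = 3 each), and the ranges of all neighbours in this order overlapped. The tight SD of adult MII, the only group without a low BMP15 array, contrasts with SDs of several units in the other 3.

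At MII, PTX3 was lower in all 3 adult pools than in all 3 prepubertal pools, as 4.78% of probe sets were. The difference was -4.33 (SE 2.45, 95% interval -9.46 to 0.79, limma adjusted p = 0.99969), and -2.20 (SE 1.54) without the 3 arrays, PP1 MII having carried much of it. The separation was also present after centring and as a percentile within the array. At GV the difference of adult minus prepubertal pools was -2.93 (SE 2.45), 0.78 (SE 2.08) when PP1 GV alone was left out, and -0.87 (SE 1.69) over the 9 arrays.

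On the 9 arrays with high BMP15, PTX3 separated the stages. It was at 6.14, 6.28 and 5.40 in adult MII and 7.54 and 8.74 in prepubertal MII pools, against 1.92 and 3.42 in adult GV and 2.62 and 4.46 in prepubertal GV pools. All 5 MII pools lay above all 4 GV pools, as did 3.82% of all kept probe sets on these arrays, and the same held after centring each array and for percentiles. The difference of MII minus GV was 3.27 in adult oocytes (SE 1.54, 95% interval -0.03 to 6.56, limma adjusted p = 0.443) and 4.60 in prepubertal oocytes (SE 1.69, interval 0.99 to 8.21, limma adjusted p = 0.681). Averaged over both ages, a comparison added after the values were seen, it was 3.93 (SE 1.14, interval 1.49 to 6.38, unadjusted p = 0.00375, limma adjusted p = 0.136), where 14.1% of probe sets had an unadjusted p under 0.05. Over all 12 arrays the same average was 2.32 (SE 1.73, limma adjusted p = 0.613), with overlap of the stages. The PTX3 change between stages did not differ detectably between ages, the adult minus prepubertal difference being -1.33 (SE 2.29, interval -6.22 to 3.55) over 9 arrays. The summed signal of the cumulus and granulosa markers on these arrays was 4947 to 23188 at MII and 5899 to 9796 at GV, and its part in the PTX3 result was not tested.

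TNFAIP6, the hyaluronan-binding protein that transfers the heavy chains, was read by 2 probe sets. Bt.958.1.A1_at was at 0.94, 0.29 and 4.11 in adult MII pools, 10.05, 6.05 and 7.41 in adult GV pools, 13.81, 4.26 and 4.28 in prepubertal MII pools and 13.29, 6.21 and 4.56 in prepubertal GV pools. The 3 arrays with low BMP15 held the 3 highest values, and adult MII pools the 3 lowest. The order of means was prepubertal GV at 8.02 ± 4.64, adult GV at 7.84 ± 2.03, prepubertal MII at 7.45 ± 5.51 and adult MII at 1.78 ± 2.04 (SD, n = 3 each). Only adult MII did not overlap its neighbour in this order.

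In adult oocytes, this TNFAIP6 probe set was lower in all MII pools than in all GV pools, as 7.19% of probe sets were. The difference was -6.06 (SE 2.41, 95% interval -11.1 to -1.01, unadjusted p = 0.0213, limma adjusted p = 0.589), and -4.95 (SE 1.81, limma adjusted p = 0.296) over the 9 arrays. A pseudocount of 32 on the linear signal, which damps differences between dim values, brought the first of these to -2.87 (SE 1.81). Adult MII pools also lay below prepubertal MII pools, by -5.67 (SE 2.41, unadjusted p = 0.0297, limma adjusted p = 0.99969), where 4.78% of probe sets were lower without overlap and 2.66% had an unadjusted p under 0.05. The difference was -2.49 (SE 1.81) without PP1 MII and the other arrays with low BMP15. The gap between adult and prepubertal MII pools was only 0.16 log2 units, and it was not present for percentiles. In prepubertal oocytes the difference of MII minus GV was -0.57 (SE 2.41) over 12 arrays and -1.11 (SE 1.98) over 9.

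On the 9 arrays, TNFAIP6 Bt.958.1.A1_at was lower in all 5 MII pools than in all 4 GV pools, as 3.53% of probe sets were, the opposite of PTX3. The average over both ages was -3.03 (SE 1.34, 95% interval -5.90 to -0.17, limma adjusted p = 0.322). Over 12 arrays it was -3.31 (SE 1.71, limma adjusted p = 0.486). On the 9 arrays the stages also stayed apart, narrowly, after centring and as percentiles. The MII pools were dim there, at linear signals of 1.22 to 19.4.

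The second TNFAIP6 probe set, Bt.958.2.S1_at, did not show this stage difference. It was at 1.34, 4.20 and 6.75 in adult MII pools, 10.32, 5.56 and 2.04 in adult GV pools, 8.53, 4.94 and 4.74 in prepubertal MII pools and 9.85, 7.91 and 2.29 in prepubertal GV pools. The 3 arrays with low BMP15 were again the 3 highest, and the groups overlapped in every comparison. Over the 9 arrays its average difference of MII minus GV was 0.02 (SE 1.60, 95% interval -3.39 to 3.43). The 2 TNFAIP6 probe sets correlated at 0.72 over 12 arrays and at 0.28 over 9, a description of arrays that share amplification and labelling.

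CD44, the hyaluronan receptor, was lowest in prepubertal GV pools and did not set the arrays with low BMP15 apart. It was at 6.50, 6.06 and 5.23 in adult MII pools, 8.65, 6.74 and 6.69 in adult GV pools, 6.16, 7.14 and 6.003 in prepubertal MII pools and 4.52, 4.33 and 1.29 in prepubertal GV pools. The 3 prepubertal GV pools were the lowest of the 12, a pattern whose share over all probe sets was not counted. The order of means was adult GV at 7.36 ± 1.12, prepubertal MII at 6.43 ± 0.62, adult MII at 5.93 ± 0.64 and prepubertal GV at 3.38 ± 1.81 (SD, n = 3 each). The first 3 groups overlapped with their neighbours in this order, and prepubertal GV did not overlap with adult MII.

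At GV, CD44 was higher in all adult pools than in all prepubertal pools, a separation in this direction seen for 1.88% of probe sets. The difference was 3.98 (SE 1.44, 95% interval 0.96 to 6.99, unadjusted p = 0.0124, limma adjusted p = 1), and 2.51% of probe sets had an unadjusted p below 0.05 here. Without the 3 arrays it was 3.90 (SE 1.67, limma adjusted p = 0.9997), and across all settings and left-out arrays it stayed between 2.12 and 4.55. The lowest of these came from a pseudocount of 32, since CD44 was dim in prepubertal GV pools, at a linear signal of 22.9, 20.1 and 2.45 on arrays scaled to a trimmed mean of 500. As a percentile of all probe sets on the same array, CD44 was at 55.4, 59.3 and 57.5 in adult GV pools, against 13.2, 11.5 and 8.28 in prepubertal GV pools, so the separation did not depend on the scale of the array.

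**Figure D2:**
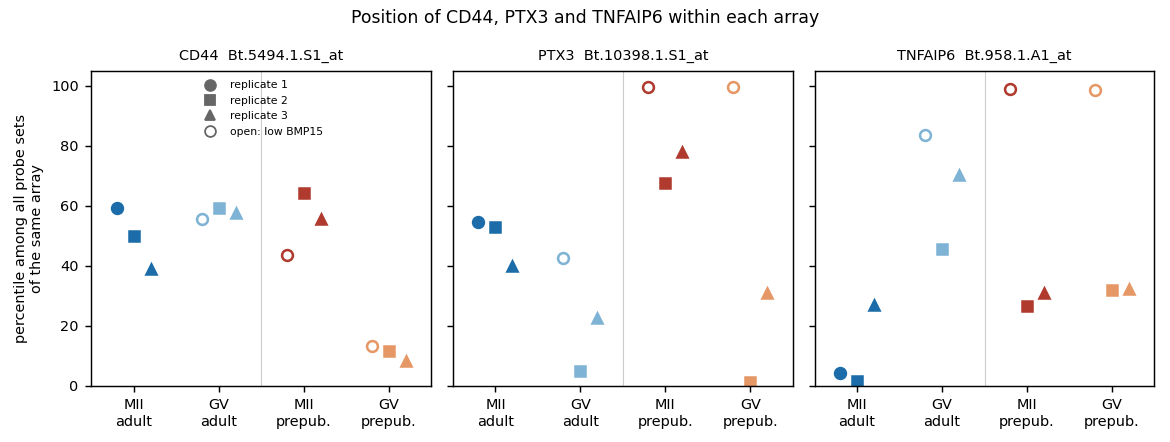
Percentile of CD44, PTX3 and TNFAIP6 Bt.958.1.A1_at among all probe sets of the same array, by group. Symbols mark the replicate and open symbols the arrays with low BMP15. CD44 lies between 8.28 and 13.2 in prepubertal GV pools and between 38.8 and 64.3 in the other 3 groups.

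The CD44 estimates for maturation had opposite signs at the 2 ages, and neither passed the adjusted test. In prepubertal oocytes all MII pools lay above all GV pools, as 3.66% of probe sets did, with a difference of 3.05 (SE 1.44, 95% interval 0.04 to 6.07, unadjusted p = 0.0474, limma adjusted p = 0.999), and the unadjusted p was 0.0714 when same-numbered pools were paired. In adult oocytes all MII pools lay below all GV pools as deposited, as 7.19% of probe sets did, with a difference of -1.43 (SE 1.44, limma adjusted p = 0.765), and this separation was not present after centring or for percentiles. The prepubertal separation was present on all 3 scales, with CD44 percentiles of 43.5, 64.3 and 55.6 at MII against 13.2, 11.5 and 8.28 at GV. The maturation change in adult minus that in prepubertal oocytes was -4.49 (SE 2.04, interval -8.75 to -0.22, unadjusted p = 0.0402, limma adjusted p = 0.9998), and -4.55 (SE 2.26, unadjusted p = 0.0631) over the 9 arrays. Of all probe sets, 4 (0.0278%) were lower at MII in adult and higher at MII in prepubertal oocytes without overlap on the 12 arrays, and 102 (0.708%) on the 9. With a pseudocount of 32 the prepubertal difference of CD44 was 1.38 and the difference between ages -2.47. At MII the ages differed by -0.51 (SE 1.44, interval -3.52 to 2.51), within the spread of the pools.

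**Figure D3:**
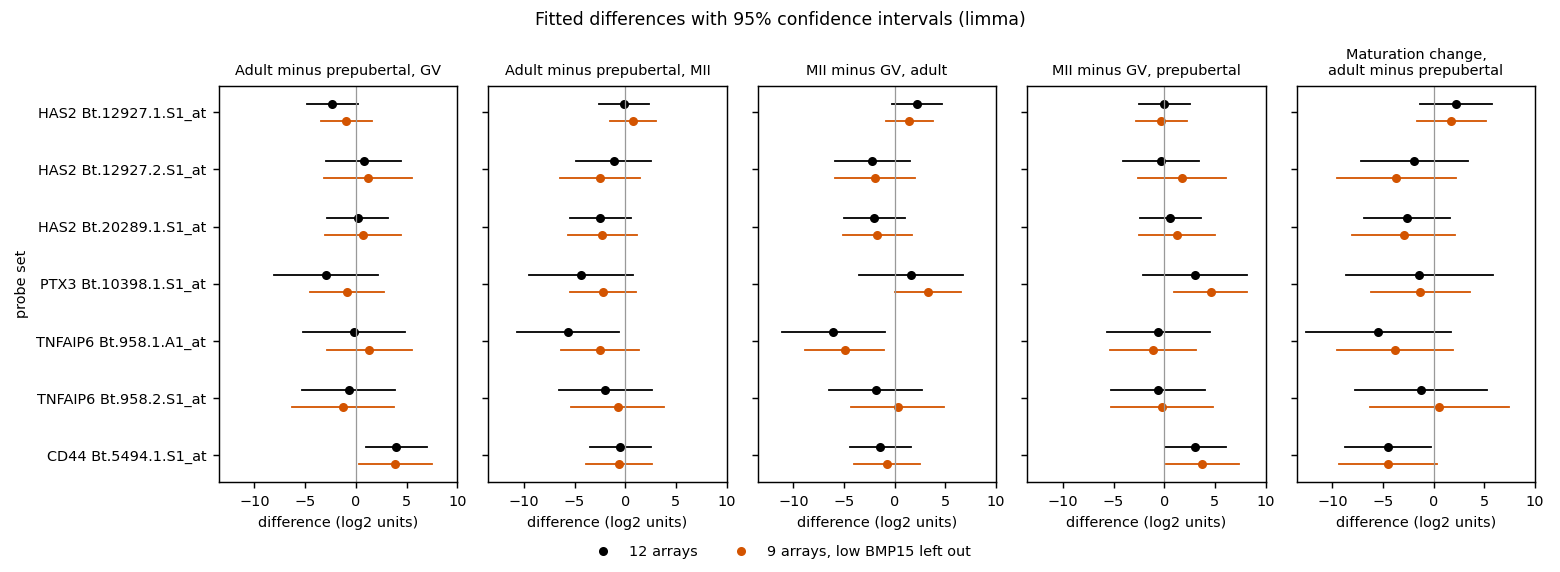
Fitted differences of the 7 probe sets in log2 units with 95% confidence intervals from limma, for 5 comparisons. Black marks the fit to 12 arrays and orange that to the 9 arrays with high BMP15. The CD44 interval for adult minus prepubertal at GV runs from 0.96 to 6.99 over 12 arrays, and most intervals of PTX3 and TNFAIP6 narrow when the 3 arrays are left out.

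No member passed an adjusted p of 0.05 in any of the 5 planned comparisons, and neither did any of the 14409 probe sets (0% called). At an unadjusted p under 0.05, limma gave 362 probe sets (2.51%) for age at GV, 383 (2.66%) for age at MII, 1143 (7.93%) for maturation in adult, 492 (3.41%) for maturation in prepubertal oocytes and 174 (1.21%) for the difference between these. Each of these comparisons held 1 of the 7 probe sets, CD44 in 3 of them and TNFAIP6 Bt.958.1.A1_at in the other two. Over 9 arrays, 17 probe sets (0.118%) were called for maturation in adult oocytes and 104 (0.722%) for the average over both ages, none of them a member.

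The 3 arrays with low BMP15 were then set apart from the other 9, with no test, since 1 array stands alone in its group. On PP1 GV, 24.8% of all kept probe sets lay above the highest of the other 9 arrays, on PP1 MII 18.6% and on A1 GV 32.7%. PTX3 lay above them on PP1 GV (14.66) and PP1 MII (14.53), against a range of 1.92 to 8.74, and within that range on A1 GV (7.61). Of all kept probe sets, 13.7% lay above on both PP1 arrays. Its excess over the mean of the 9 was 9.49 on PP1 GV and 9.37 on PP1 MII, against 2.44 on A1 GV. TNFAIP6 Bt.958.1.A1_at lay above the range of 0.29 to 7.41 on all 3, with an excess of 9.06 on PP1 GV, 9.58 on PP1 MII and 5.81 on A1 GV. Its second probe set also lay above on all 3, as 6.46% of probe sets did, with an excess of 5.43, 4.11 and 5.90. Over the 9 arrays both genes had means below the filter limit of 5.57, so nothing is read from these shares.

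The excess of HAS2 over the mean of the 9 was smaller than that of PTX3 and TNFAIP6 on each of these arrays, and CD44 took no common position. HAS2 Bt.12927.1.S1_at was above the range of 7.36 to 9.57 on PP1 GV (10.50) and PP1 MII (11.04), with an excess of 1.95 and 2.49. On A1 GV it was below that range (5.41), as 19.0% of probe sets were, while Bt.20289.1.S1_at was above its own range on all 3 arrays, with an excess of 2.27, 1.66 and 1.44, and Bt.12927.2.S1_at within it. CD44 was within its range of 1.29 to 7.14 on PP1 GV (4.52) and PP1 MII (6.16) and above it on A1 GV (8.65). After centring on the array median, Bt.20289.1.S1_at was at 2.54, 3.05 and 1.03 on PP1 GV, PP1 MII and A1 GV, against up to 3.60 on the 9. Bt.12927.1.S1_at on PP1 GV was then at 2.87, against up to 3.69, and CD44 on A1 GV at 0.34, against up to 1.21. After centring, these thus lay within their ranges. As percentiles within the array, Bt.20289.1.S1_at was above its range on PP1 GV (87.6) and PP1 MII (82.5), against up to 80.7. On A1 GV it was at 66.7. Bt.12927.1.S1_at on PP1 GV was at the percentile 89.9, against up to 85.0, and CD44 on A1 GV at 55.4, against up to 64.3. Both TNFAIP6 probe sets stayed above on all 3 arrays after centring. On all 3 arrays with low BMP15, TNFAIP6 was high by both probe sets, and PTX3 was very high on the 2 prepubertal ones. Over the other 9 arrays the means of these probe sets lay below the filter limit. They may thus have been kept because of these same 3 arrays, and no conclusion on a link with BMP15 is drawn. Bt.20289.1.S1_at was above its range on all 3 only as deposited, and CD44 had no common level. Most of the 17 cumulus and granulosa markers moved with PTX3 and TNFAIP6 on PP1 GV and PP1 MII. So did most theca and stroma markers, of which 10 and 8 of 12 lay above the range. On A1 GV, where TNFAIP6 was also high, 11 of 17 cumulus and granulosa markers and 8 of 12 theca and stroma markers did. Of 8 blood cell markers 1 lay above the range on PP1 GV, none on PP1 MII and 4 on A1 GV. The part of other cell types in these levels was not tested. No marker was at 0 on these arrays.

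**Figure D4:**
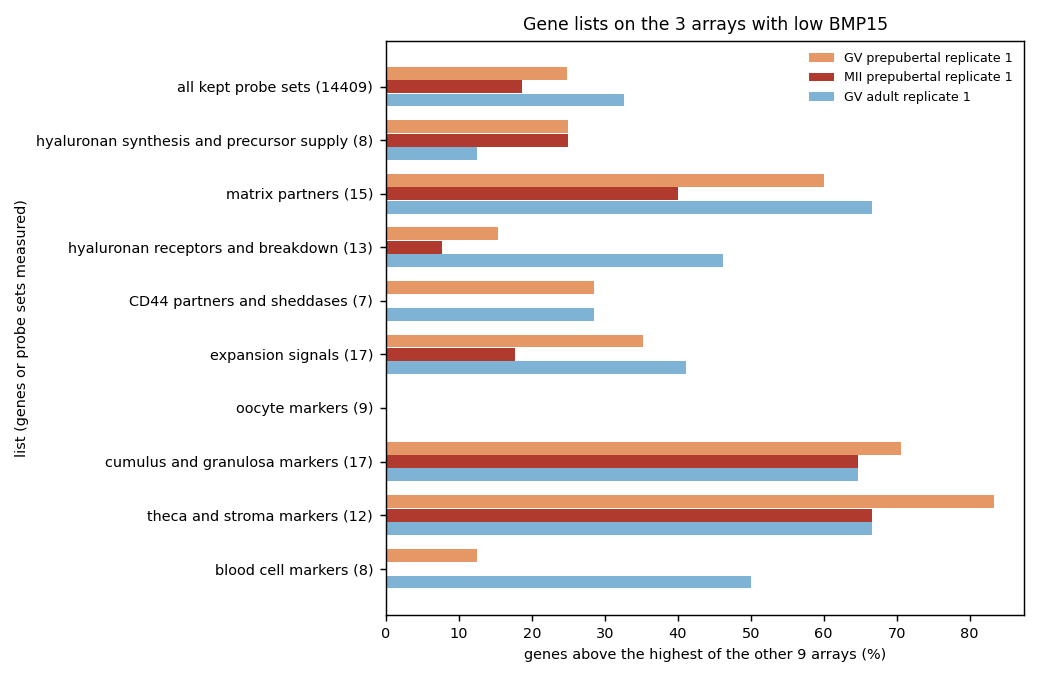
Share of the genes of each list, in percent, whose signal lies above the highest of the other 9 arrays, on each of the 3 arrays with low BMP15. The top bars give the share over all 14409 kept probe sets (24.8%, 18.6% and 32.7%), and the number of genes measured stands beside each list. The lists also hold genes that were not kept. No oocyte marker lies above, whereas 64.7% to 70.6% of cumulus and granulosa markers do.

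The other genes of the pathway were described by lists, with 1 probe set per gene. Counts above the range used deposited values without centring and cover all measured genes, also those not kept for testing. Kept were 7 of 15 matrix partners and, among the markers, 2 of 8 for blood cells. The shares over kept probe sets are therefore not of like sets. Of 8 measured genes of hyaluronan synthesis and precursor supply, 2 lay above the range of the 9 arrays on PP1 GV, 2 on PP1 MII and 1 on A1 GV. UAP1, which makes the activated N-acetylglucosamine used for hyaluronan, was at 11.49, 12.91 and 11.22 on these 3 arrays, against 3.22 to 8.07 on the other 9. UGDH, which makes the glucuronic acid precursor, lay within the range on all 3. GFPT1, the entry enzyme of the hexosamine pathway, was below the range on PP1 GV and A1 GV and within it on PP1 MII, at 7.51, 8.92 and 5.33 against 7.67 to 11.45.

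Of 15 matrix partners, 9 lay above the range on PP1 GV, 6 on PP1 MII and 10 on A1 GV. Versican (VCAN), a hyaluronan-binding proteoglycan that is also in the list of cumulus markers, was at 16.08 and 17.10 on PP1 GV and PP1 MII, against 10.03 to 13.88 on the 9, and below them at 9.67 on A1 GV. ADAMTS4, a protease of such proteoglycans, was at 4.98, 7.16 and 5.61 on the 3 arrays, against 9.55 to 13.37 on the 9. Like the oocyte markers, it lay below the range on each of the 3. Of 13 hyaluronan receptors and enzymes of its breakdown, 2, 1 and 6 lay above the range (15.4%, 7.69% and 46.2%). HMMR, a hyaluronan-binding protein also found on the mitotic spindle, was at 9.05, 7.04 and 10.34, against 10.88 to 12.56 on the 9. HYAL1, a lysosomal hyaluronidase, was at 7.53, 10.94 and 8.55 as deposited, against 1.49 to 6.92. On PP1 GV, HYAL1 lay below the array median of 7.63. On the first adult MII array, at 6.38, it lay above the median of 5.88.

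Of 7 partners and sheddases of CD44, 2 (28.6%) lay above the range on PP1 GV, none on PP1 MII and 2 (28.6%) on A1 GV. Of all kept probe sets, 24.8%, 18.6% and 32.7% did. Ezrin (EZR), which ties CD44 to actin, was below the range on all 3, at 12.76, 13.59 and 4.97 on the 3 arrays, against 15.09 to 16.30 on the 9. So was radixin (RDX), at 9.74, 9.23 and 5.16 against 10.53 to 13.17. Of 17 genes of expansion signalling, 6, 3 and 7 lay above the range (35.3%, 17.6% and 41.2%). The 17 include GDF9 and BMP15 of the oocyte list, both below the range on all 3 arrays, and AREG, PTGS2, FSHR and LHCGR of the cumulus list. SMAD4, the common mediator of TGF-beta signals, was at 11.90 and 12.07 on PP1 GV and PP1 MII and 6.36 on A1 GV, against 6.53 to 9.58.

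None of these pathway genes passed the adjusted test in any comparison over 12 arrays. Maturation in adult oocytes had the most at an unadjusted p under 0.05, in a comparison where 7.93% of probe sets had one. There, 2 of 6 kept synthesis and precursor genes had one, both higher at MII, GFPT1 by 2.97 (SE 1.34) and GNPNAT1 by 3.42 (SE 1.32), and the median over the 6 was 0.08, beside -0.10 over all probe sets. Of 7 kept matrix partners, 2 had higher and 5 lower estimates at MII, with a median of -2.63, and the perlecan gene HSPG2 had a difference of -3.83 (SE 1.55). Of 8 kept receptors and breakdown enzymes, 7 had lower estimates, with a median of -1.47. Among them, TLR2, a receptor of innate immunity that hyaluronan fragments can engage, had a difference of -3.66 (SE 1.47, limma adjusted p = 0.589). Over the 9 arrays, 1 of 7 matrix partners and 3 of 8 receptors and enzymes had higher estimates, with medians of -1.31 and -0.62. The median of the synthesis genes was then 0.16, beside 0.05 over all probe sets. GNPNAT1 (3.27, SE 1.42) and TLR2 (-3.21, SE 1.09) still had an unadjusted limma p under 0.05, but GFPT1 and HSPG2 did not. HEXA, a subunit of lysosomal hexosaminidase, had its low unadjusted p in prepubertal oocytes, with -4.33 over 12 arrays (SE 1.99, limma adjusted p = 0.999) and -7.37 over 9 (SE 2.10, limma adjusted p = 0.586).

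HYAL2, a hyaluronidase anchored to the cell surface, and moesin (MSN), an ezrin relative that binds CD44, had low unadjusted p in opposite directions. HYAL2 was at 4.11, 3.71 and 5.09 in adult MII pools and 3.37, 3.67 and 5.15 in prepubertal MII pools, against 9.83, 7.33 and 8.30 in adult GV pools and 7.23, 8.08 and 3.92 in prepubertal GV pools. In adult oocytes the stages did not overlap, as 7.19% of probe sets were lower at MII without overlap, and the difference was -4.18 (SE 1.50, limma adjusted p = 0.563). Over the 9 arrays it was -3.51 (SE 1.64, limma adjusted p = 0.434). The MSN estimate was higher at MII at both ages, by 3.10 in adult (SE 1.33, limma adjusted p = 0.596) and by 3.21 in prepubertal oocytes (SE 1.33, limma adjusted p = 0.999). Over the 9 arrays, its average difference over both ages was 2.28 (SE 0.77, limma adjusted p = 0.195).

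One pathway gene passed the test over the 9 arrays. BMPR1B, a receptor for BMP15 and related ligands, was at 11.47, 11.27 and 13.29 in adult MII and 11.38 and 10.30 in prepubertal MII pools, against 5.93 and 7.28 in adult GV and 10.05 and 8.61 in prepubertal GV pools. All MII pools lay above all GV pools, as 3.82% of all kept probe sets did. The average difference over both ages, a comparison added after the values were seen, was 3.46 (SE 0.75, limma adjusted p = 0.0498). In that comparison 0.722% of probe sets were called. The BMPR1B call was lost when the same 9 arrays were centred on their medians, where limma called no probe set, 1925 had an unadjusted p under 0.05 and the smallest adjusted p was 0.0847. Over all 12 arrays the average was 2.65 (SE 0.89, limma adjusted p = 0.360), with A1 GV at 10.87, above both other adult GV arrays. By age over the 9 arrays, the BMPR1B difference was 5.40 in adult oocytes (SE 1.01, limma adjusted p = 0.0545). In prepubertal oocytes its unadjusted limma p was not under 0.05. The adult minus prepubertal difference of these changes was 3.89 (SE 1.50, unadjusted p = 0.0206, limma adjusted p = 0.999).

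For each member, the genes with the most similar pattern were found by Pearson correlation of kept probe sets, as a description of arrays that share donors, amplification and the contrast between the 3 arrays and the rest. Over 12 arrays, PTX3 was closest to RCAN1 (0.95), HSPB1 (0.95) and TPM2 (0.93), and TNFAIP6 to PCOLCE2 (0.96), SMARCA1 (0.96) and PLA2G7 (0.95). HAS2 was closest to RPL13 (0.93), TBL1XR1 (0.93) and CAPG (0.92), and CD44 to GPS2 (0.88), GPAT3 (0.87) and ALKBH1 (0.87). Over the 9 arrays none of these genes was among the closest. There PTX3 was closest to ATP2A2 (0.94), H3-3A (0.93) and CLINT1 (0.93), TNFAIP6 to IBA57 (0.94), PAIP2 (0.93) and BFAR (0.93), HAS2 to IPO11 (0.94), ICA1 (0.91) and BAG5 (0.90), and CD44 to ITGB4 (0.98), POC1B (0.97) and KCNMA1 (0.97). Among the members, PTX3 and TNFAIP6 correlated at 0.63 over 12 arrays and at -0.57 over 9, and HAS2 and TNFAIP6 at 0.16 and -0.77. The sign for PTX3 and TNFAIP6 thus changed with the 3 arrays.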

How the data were processed

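The data are 12 bovine Affymetrix arrays. The values are log2 signals as deposited, and the submitters' processing notes name MAS5 with no version. Each array had a 2% trimmed linear mean of about 500, and no further scaling was applied. From 24128 probe sets, 112 controls were left out, and 14409 with a mean above the 40th percentile (5.57 log2 units) were kept. Symbols came from the platform annotation, with 99.8% of its Entrez numbers found in a RefSeq table of cattle genes. No sequences or genome coordinates were used.

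One model of 4 group means over the 12 arrays was run in limma 3.58.1 (R 4.3.3), with an intensity trend and 8 residual degrees of freedom. Benjamini-Hochberg adjustment covered all kept probe sets, at a threshold of 0.05, and the test was checked on simulated data. "Above the range" means above the highest of the other 9 arrays. Members and lists were chosen with earlier results of these data known, as were the 3 arrays with low BMP15.

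All probe sets of the members are named. Likewise named are the 3 genes most correlated with each member's brightest probe set, and some of the list genes that had an unadjusted p under 0.05 or the highest levels of their list. Values come from the fit without pairing. Deviations of same-numbered arrays correlated above 0.1 in every pair only for maturation in prepubertal oocytes, at 0.61, 0.15 and 0.31. Alternatives were quantile normalization, median centring, other filters, a pseudocount of 32, a replicate block, a letter in some array titles as a covariate, no trend, only the compared groups and leaving out arrays.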

Additional observations from a re-analysis of the deposited data

Results flagged for a closer look

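The CD44 estimates of the maturation change differed in sign between ages: adult minus prepubertal was -4.49 log2 units (SE 2.04, unadjusted p = 0.0402, limma adjusted p = 0.9998), from a change of -1.43 in adult and of 3.05 in prepubertal oocytes. It drew attention because every adult MII pool lay below every adult GV pool while every prepubertal MII pool lay above every prepubertal GV pool, as deposited. The adult separation was not present after median centring, and the interaction did not pass the adjusted test. CD44 rests on 1 probe set with dim values in prepubertal GV pools. With a pseudocount of 32, which damps differences between dim values, the interaction was -2.47 and the prepubertal change 1.38. The part of dim signal in the result was not tested further.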

How the results depend on the processing

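No member was called under any of 25 settings. Of 1026 differences of members recomputed, 74 had the other sign, none of them called, and 25 of the 42 differences kept their sign in every setting. The CD44 differences for age at GV, maturation in prepubertal oocytes and the difference between ages were among those. The number of probe sets called stayed at 0 for age at GV, age at MII and the difference between maturation changes. For maturation in adult oocytes it was 7 with the replicate block, 17 over 9 arrays, 16 over 9 arrays after quantile normalization, 0 over 9 arrays after median centring and 69 over 8 arrays, the third adult MII array also left out. For maturation in prepubertal oocytes it was 5 over 8 arrays. For the average over both ages it was 104 over 9 arrays, 156 after quantile normalization of these, 0 after median centring of these and 315 over 8 arrays, and 0 to 9 when 1 array was left out. The causes were not tested. In the paired analysis, the replicate block left the count for maturation in prepubertal oocytes at 0 and changed no call of a member. In the other comparisons, not every pair of same-numbered arrays deviated together. The fits over 8 arrays, the other scalings of 9 arrays and the average over both ages were chosen after seeing the data. Median centring moved the median change of all probe sets for maturation to 0.68 in adult and 0.62 in prepubertal oocytes, against -0.10 and -0.29 as deposited. With the letter in the titles as a covariate, the CD44 maturation difference was -0.05 in adult and 4.43 in prepubertal oocytes. The number of arrays limits the precision, and no background calls were used.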
